A study of Mus musculus with 36 samples.

Results

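Lysosomes break down proteins, glycans and lipids with acid hydrolases, and the 33 genes described here encode such enzymes, their helper proteins, proteins of the lysosomal membrane and 1 transcription factor. They were chosen by symbol, with earlier results of these data known, from 30205 genes with a value in the study. By role they were 11 glycosidases, which cut sugars (Gla, Glb1, Gaa, Gusb, Hexa, Idua, Naglu, Neu1, Man2b1, Manba and Fuca1), and 5 sulfatases, which remove sulfate from glycans and lipids (Galns, Ids, Arsa, Arsb and Sgsh). There were also 4 lipid hydrolases (Galc, Asah1, Smpd1 and Lipa), 4 lipid activator and transfer proteins (Psap, Gm2a, Npc1 and Npc2), a peptidase (Tpp1) and a thioesterase (Ppt1). The remaining members were 6 membrane proteins (Lamp1, Lamp2, Cd63, Scarb2, Cln3 and Mcoln1) and Tfeb. Inherited loss of many of these enzymes causes a lysosomal storage disease, often with skeletal signs where glycosaminoglycans accumulate.

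Most hydrolases are made with a mannose 6-phosphate tag that routes them to the lysosome, and the heavily glycosylated LAMP proteins line its membrane. TFEB and its relatives TFE3, MITF and TFEC bind a short DNA motif found near many lysosomal genes. In osteoclasts, the bone-resorbing cells, lysosome-related vesicles fuse with the membrane facing bone and release acid and hydrolases onto it.

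The study sequenced RNA from cultured cells of mice aged 20 weeks that were wild type (WT) or lacked the microRNA gene Mir324 (Mir324-null, here null), in 6 groups of 6 libraries, 36 in all. Marrow cells of both genotypes first spent 3 days in 100 ng/mL M-CSF, a cytokine that macrophages need. Bone marrow macrophages (BMM) then had M-CSF alone at 30 ng/mL for 5 days, and cultures labelled osteoclasts (OC) had in addition the cytokine RANK-L at 50 ng/mL. Osteoblasts (OB), the bone-forming cells, grew out of collagenase-treated bone chips over about 6 weeks and were kept for 18 days with 2 mM β-glycerophosphate and 50 µg/mL ascorbic acid. BMM and OC cultures therefore differed in RANK-L alone, whereas OB cultures differed from both in source, medium and age in culture. The labels give neither the sex and strain of the mice nor the design of the null allele. They do not say whether the libraries of a group came from separate mice, so the p-values measure the spread between these libraries, which may be technical. The level of the microRNA was not analysed here.

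The libraries held 14118972 to 26347581 estimated counts, and all 33 members passed the filter on low counts in every comparison. The marker genes of the labelled cell type were present in WT cultures: 8 osteoclast markers summed to a median of 31738 TPM (a length-corrected unit whose values have the same total in every library) in WT OC and 74.4 TPM in WT BMM. In null OC the same sum was 348 TPM (range 233 to 569) and Calcr, a defining marker, was listed at 0, so the libraries labelled null OC did not carry the expression of osteoclasts. Their macrophage markers summed to 8475 TPM (6202 to 9491), against 2736 TPM (2566 to 2922) in WT OC and 9202 TPM (8857 to 9918) in null BMM. Null OC replicate 6 stood apart within its group, with Ctsk, an osteoclast protease, at 221 CPM (a share of the library's counts, scaled over all libraries) against 37.0 to 62.7 CPM in the others. WT OC replicate 4 had the highest value of its group for Arsb, Glb1 and Tpp1. The OB libraries also held osteoclast markers, 4090 to 5144 TPM in WT and 5339 to 8072 TPM in null, and macrophage markers, 3624 to 4223 TPM in WT and 2318 to 3222 TPM in null. Neutrophil markers summed to 14.8 TPM in WT BMM and 185 TPM in null BMM, but only 2 of the 10 passed the filter. S100a9, Elane, Ltf and Retnlg had 0 rounded counts in every null BMM library. The part of these cell types in the results below was not tested. In such bulk samples, fewer cells of a type and less RNA per cell cannot be told apart.

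Sequences are shown for 2 features, the promoter motif bound by the TFEB family and the matches to the microRNAs that null cells lack. The 6 letters CACGTG, which read the same on both strands, are the core of that motif. Of the 33 members 30 had an entry in the RefSeq promoter table (GRCm38.p6, 250 bases before to 50 after each start). Among these, 9 (30.0%) held CACGTG: Arsa, Cln3, Gaa, Gla, Glb1, Lamp1, Mcoln1, Naglu and Sgsh. Over all 27025 genes of the table the share was 8.09%, and over its 32851 promoters 7.15%. The longer form GTCACGTG, counted on both strands, was in 8 of 30 members (26.7%) and 2.55% of all genes. The motif is one found near many lysosomal genes, and the members were picked as such genes. The difference between these shares was therefore not tested. Such a match is a description of the letters and not a binding site. Lamp1 held 4 copies in the 73 bases before its start, more than any other member. They are shown beside Gla and Glb1, as Lamp1 and Gla were lower in WT OC than in WT BMM and Glb1 was higher. CACGTG is in capitals, and the stretches are Lamp1 at chr8:13159088-13159160 (plus strand), Gla at chrX:134601182-134601244 (minus strand) and Glb1 at chr9:114401018-114401047 (plus strand).
Lamp1: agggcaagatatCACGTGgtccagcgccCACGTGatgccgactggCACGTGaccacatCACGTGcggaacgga
Gla: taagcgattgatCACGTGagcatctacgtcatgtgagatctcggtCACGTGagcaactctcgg
Glb1: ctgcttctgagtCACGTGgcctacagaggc

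Mir324 gives rise to 2 mature microRNAs, shown with the seed (bases 2 to 8), the part that pairs with targets, in capitals. Their sequences are from RefSeq (GRCm38.p6), on the plus strand of chromosome 11.
mmu-miR-324-5p: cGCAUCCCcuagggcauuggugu
mmu-miR-324-3p: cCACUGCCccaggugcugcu
The letters that pair with the seed of miR-324-5p, GGGATGC, were in the longest annotated 3′ UTR of 4 members (12.1%, against 8.26% of 20822 genes): Galc, Sgsh, Tfeb and Tpp1. Those for miR-324-3p, GGCAGTG, were in 8 members (24.2%, against 14.2%): Arsb, Gusb, Lamp2, Lipa, Man2b1, Ppt1, Psap and Sgsh. For Gusb, Lamp2, Ppt1, Psap and Sgsh the longest UTR belonged to a transcript other than the one with most TPM. The Gusb match was in Gusb-206, while Gusb-201 held 92.6% of Gusb TPM in WT BMM. The Ppt1 match, in Ppt1-203, lies before the last exon of Ppt1-201 and so outside the 3′ UTR of that main transcript. The members' UTRs had a median length of 1399 bases against 1092 bases over all genes, and a longer UTR has more room for a match. The stretches of 3 members on which the results below turn are shown with the match in capitals, each read on its own strand (GRCm38): Arsb at chr13:93942696-93942722 (plus), Lamp2 at chrX:38421000-38421026 (minus) and Psap at chr10:60302440-60302466 (plus).
Arsb: tgtgactgtaGGCAGTGtttggaatat
Lamp2: ataattgctaGGCAGTGccaaatgaag
Psap: gcgtctgcctGGCAGTGggccatgaac

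Together the 33 members made up 1.49% of all TPM in WT BMM (median; sum 14926 TPM, range 14284 to 15758). The sum was 11133 TPM in null BMM (10384 to 12062), 11376 in WT OC (11007 to 12117) and 11539.7 in null OC (10109.5 to 12364). In osteoblast cultures it was 9705 TPM in WT (9483 to 9930) and 9233 TPM in null (9040 to 9825). The WT BMM libraries all lay above those of the other groups, while WT OC and null OC overlapped. The ratio of null to WT medians was 0.746 in BMM, 1.01 in OC and 0.951 in OB. With the members' CPM summed in place of TPM, these ratios were 0.803, 1.19 and 0.857.

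**Figure D1:**
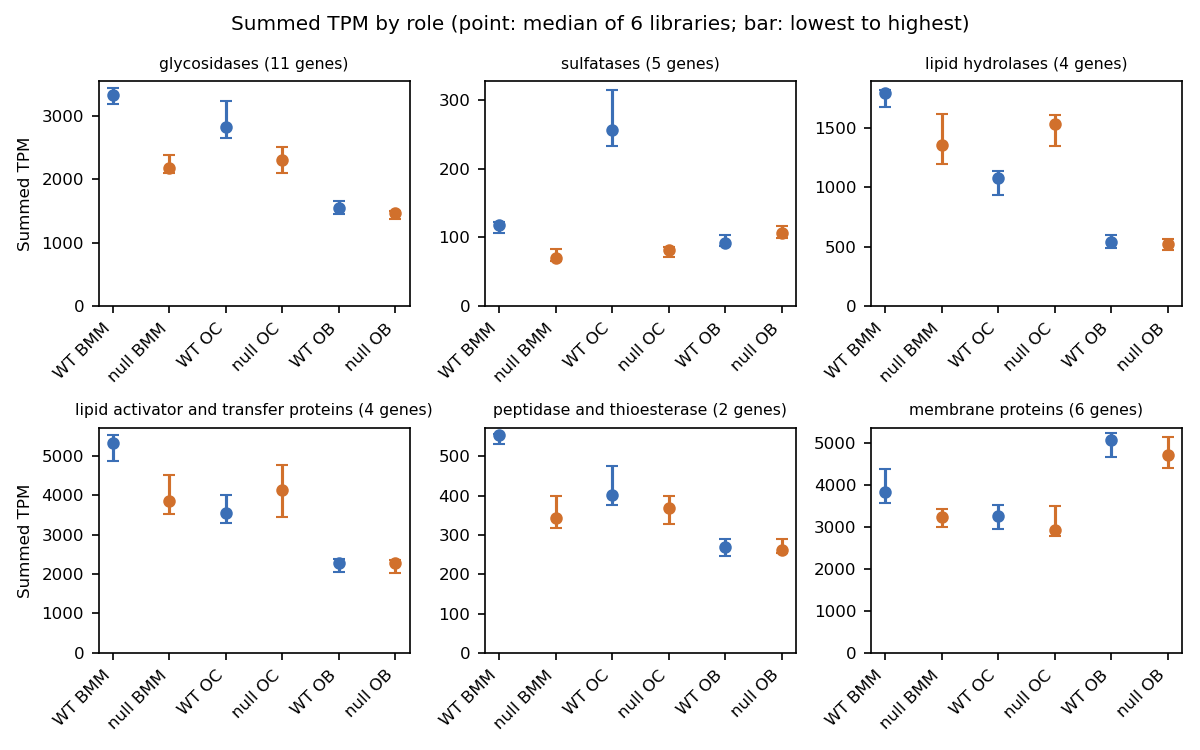
Summed TPM of the members of each role (vertical axis) in the 6 groups (horizontal axis), with WT in blue and null in orange; points are medians of 6 libraries and bars run from the lowest to the highest. Sulfatases peak in WT OC at 256 TPM, lipid hydrolases and lipid activators are highest in WT BMM, and membrane proteins have their highest median in WT OB at 5088 TPM.

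Levels between members, on the per-length TPM scale, ran from a median of 6.56 TPM for Ids, which removes sulfate from heparan and dermatan sulfate, to 4583 TPM for Psap, the precursor of the saposins that help enzymes reach sphingolipids, in WT BMM. Psap supplied 30.6% of the members' TPM in WT BMM and 16.6% in WT OB. Cd63, a tetraspanin of late endosomes, supplied 15.6% in WT BMM and 42.5% in WT OB. The order therefore changed with the culture: Psap had the highest median of the members in BMM of both genotypes and in null OC, and Cd63 in WT OC and in both OB groups. In WT OC their ranges overlapped, 2138 to 2709 TPM for Psap and 2340 to 2852 TPM for Cd63. For Cd63, 15.9% of its sequences of 31 bases also occur in transcripts of other genes, among them its pseudogene Cd63-ps, so its level is uncertain. Among WT cultures the highest median was in BMM for 23 members, in OC for 7 (Glb1, Manba, Arsb, Npc2, Gm2a, Tpp1 and Smpd1) and in OB for 3 (Gaa, Arsa and Cd63). Within a group the coefficient of variation had a median over members of 5.70% in WT OC and 10.2% in null OC. Lamp1 varied most in 5 of the 6 groups, with a mean of 231 ± 63.6 CPM in WT OC (SD, n = 6), and in WT OB of 403 ± 152 CPM.

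RANK-L in WT cultures went with a split among the members (WT OC against WT BMM). Of 33 members 26 passed an adjusted p of 0.05, against 60.5% of all 12661 genes tested: 6 were higher in OC (30.4% of all genes were) and 20 lower (30.1%). The median log2 fold change of the 33 members was -0.31, beside -0.00 over all genes. The tests were edgeR's quasi-likelihood test with Benjamini-Hochberg adjustment over all genes tested, here and in every sentence below that gives an adjusted p. Over the same libraries 8 of 8 osteoclast markers rose and 8 of 8 macrophage markers fell, and their part in the members' changes was not tested. The 6 higher members were Arsb, Smpd1, Gm2a, Glb1, Npc2 and Manba.

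Arsb, arylsulfatase B, removes sulfate from dermatan and chondroitin sulfate of cartilage and bone matrix (chromosome 13, 93771630 to 93943016). It had 54.3, 68.3 and 72.3 CPM (lowest, median and highest) in WT BMM and 422, 445 and 516 CPM in WT OC, without overlap, a rise of 6.79-fold (log2 fold change 2.76, SE 0.09, adjusted p 4.56e-20). Smpd1, acid sphingomyelinase (chromosome 7, 105554360 to 105558389), had 47.0, 52.2 and 54.4 CPM in WT BMM and 123, 137 and 146 CPM in WT OC, a log2 rise of 1.39 (SE 0.10, adjusted p 8.95e-13). Gm2a, the activator that presents GM2 ganglioside to hexosaminidase A, had 344, 405 and 481 CPM in WT BMM and 935, 1027 and 1112 CPM in WT OC (log2 fold change 1.32, SE 0.07, adjusted p 9.79e-16). The groups did not overlap for any of these 3 genes. Glb1, lysosomal β-galactosidase, rose by a log2 fold change of 0.98 (SE 0.05), Npc2, which hands cholesterol to NPC1, by 0.38 (SE 0.07), and Manba, β-mannosidase, by 0.28 (SE 0.10). Glb1 shares exon sequence with Tmppe on the same strand, so its value is uncertain whether or not reads were counted by strand. Arsb overlaps exons on the opposite strand, and the sources do not state whether reads were counted by strand. The Arsb value is uncertain to that extent.

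The 20 lower members included 4 of the 6 membrane proteins and 8 of the 11 glycosidases. Lamp1, a main glycoprotein of the lysosomal membrane (chromosome 8, 13159161 to 13175338), had 652, 789 and 1074 CPM in WT BMM and 113, 247 and 301 CPM in WT OC, a fall without overlap (log2 fold change -1.86, SE 0.24, adjusted p 3.56e-07). Its SE was the widest of the members. Lamp1 overlaps Grtp1 on the opposite strand. Scarb2, the receptor that carries glucocerebrosidase to lysosomes, had 84.6, 97.4 and 103 CPM in WT BMM and 29.5, 33.1 and 37.3 CPM in WT OC (log2 fold change -1.53, SE 0.06, adjusted p 7.78e-18). Galc, which cuts galactosylceramide, went from 174, 199.9 and 202 CPM to 59.7, 70.7 and 73.5 CPM (log2 fold change -1.50, SE 0.10). Lamp2 fell by 1.33 on the log2 scale (SE 0.07), the thioesterase Ppt1 by 1.29 (SE 0.05), the mannosidase Man2b1 by 1.22 (SE 0.07), the acid lipase Lipa by 1.08 (SE 0.06) and Psap by 1.05 (SE 0.07). All of these members had WT OC libraries below every WT BMM library. The other lower members, Gla, Galns, Gusb, Hexa, Idua, Naglu, Neu1, Asah1, Npc1, Cln3, Fuca1 and Sgsh, had log2 fold changes from -0.96 to -0.26. The 7 members that missed the threshold were Gaa, Ids, Arsa, Tpp1, Cd63, Mcoln1 and Tfeb.

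**Figure D2:**
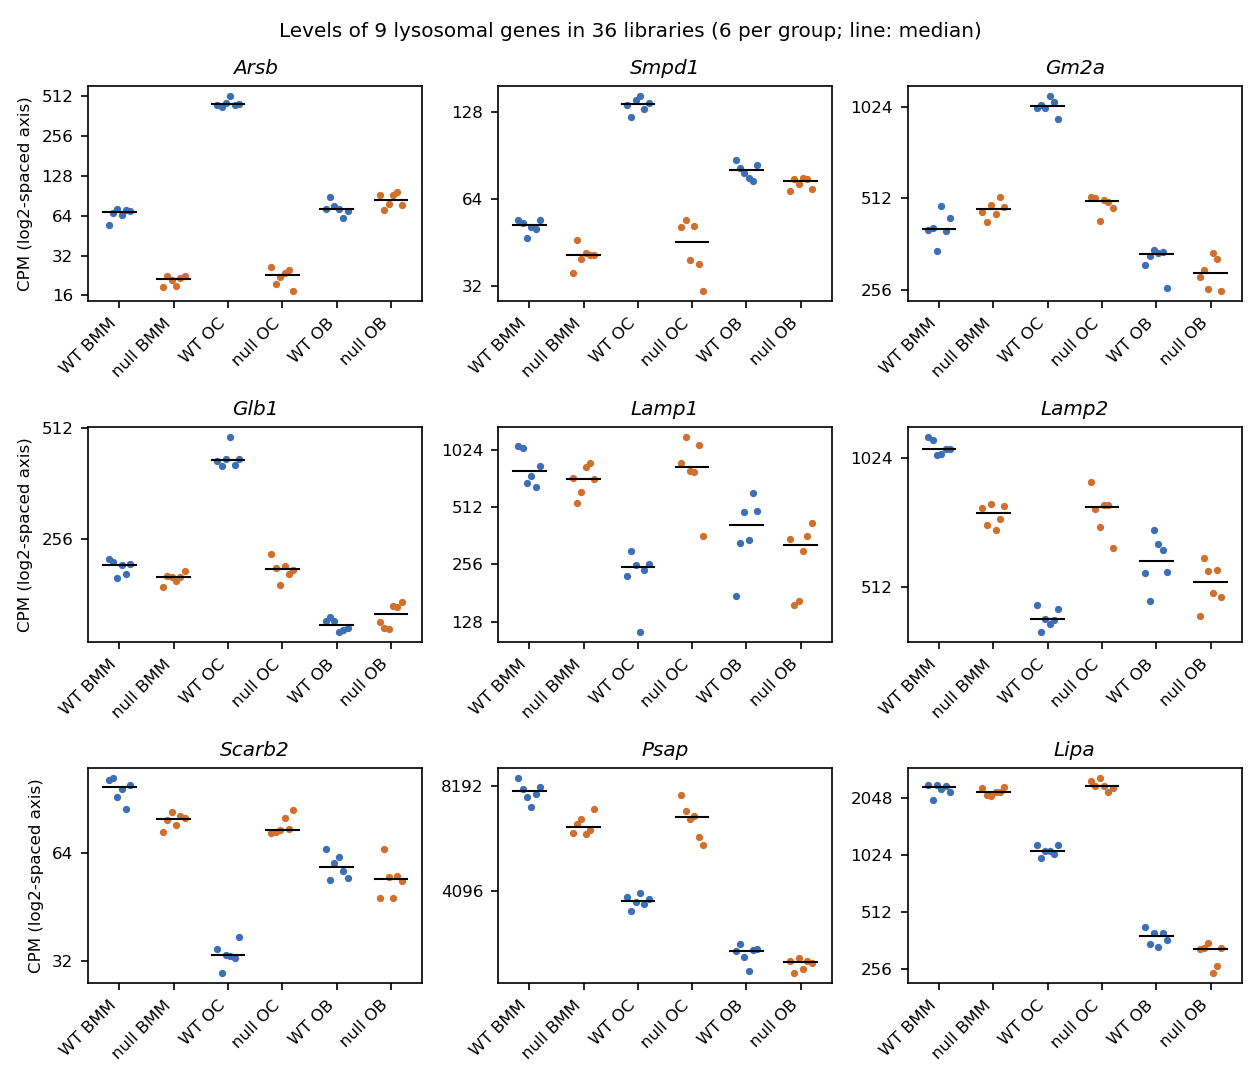
CPM of 9 members in every library (vertical axis, spaced by log2) by group (horizontal axis), with WT in blue, null in orange and the median as a line. Arsb, Smpd1, Gm2a and Glb1 have their WT OC libraries above all other groups, Scarb2 has its WT OC libraries, 29.5 to 37.3 CPM, below all other groups, and Lamp2 has them below all groups but null OB, whose libraries overlap with them.

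The CACGTG motif was in the promoter of 1 of the 6 members that were higher in WT OC (Glb1), of 5 of the 17 lower members with a promoter entry (Gla, Naglu, Lamp1, Cln3 and Sgsh) and of 3 of the 7 that missed the threshold (Gaa, Arsa and Mcoln1). The 4-copy stretch printed above thus belongs to the lower member with the largest change. Tfeb itself had 9.56, 13.8 and 14.7 CPM in WT BMM and 10.2, 11.5 and 12.3 CPM in WT OC, ranges that overlapped (log2 fold change -0.23, SE 0.10, adjusted p 0.0571). Of its relatives, Tfe3 fell by 0.73 on the log2 scale (SE 0.07) in WT OC, while Mitf rose by 0.33 (SE 0.10) and Tfec by 0.67 (SE 0.12).

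In null cultures RANK-L went with far fewer calls. Of 33 members 6 passed the threshold between null OC and null BMM, against 12.9% of all genes: Gaa (log2 fold change 0.30), Galns (0.32), Gusb (0.24) and Npc1 (0.22) were higher (6.78% of all genes were), and Ids (-0.49) and Cd63 (-0.34) lower (6.07%). Of the markers, 6 of 8 for osteoclasts were higher and 2 of 8 for macrophages lower in null OC than in null BMM. The largest change among the members was that of Ids, whose groups overlapped, 16.1 to 27.1 CPM in null BMM and 9.91 to 16.8 CPM in null OC. The libraries of both null groups overlapped for all 33 members, and the share of all genes with such an overlap was not computed. Without null OC replicate 6, 7 members passed. The Npc1 call (adjusted p 0.036) was lost in fits without null BMM replicate 2, 3, 4 or 5 or null OC replicate 1, 2 or 4 (log2 fold change 0.20 to 0.21), and the Ids and Galns calls were each lost without null OC replicate 3 (-0.42 or -0.38 for Ids, whose call also went without null BMM replicate 3, and 0.28 for Galns). After correction for transcript length and GC content the calls of Gaa, Galns and Gusb were lost as well (0.16 to 0.22). The 3 members called in both genotypes, Galns, Gusb and Npc1, had opposite signs in WT and null. At an unadjusted p under 0.05, 7 members were higher and 2 lower in null OC.

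The change with RANK-L was then compared between genotypes by the interaction term. It passed the threshold for 28 of 33 members, against 51.4% of all genes, with 22 positive (25.3% of all genes) and 6 negative (26.1%). A positive term means that the change from BMM to OC was more positive in null cultures. The term was -2.65 for Arsb (SE 0.12, adjusted p 5.27e-16), -1.27 for Smpd1 (SE 0.14), -1.25 for Gm2a (SE 0.10) and -0.89 for Glb1 (SE 0.08). In null cultures these genes had RANK-L log2 fold changes of 0.11, 0.12, 0.06 and 0.09, none past the threshold (95% interval for Arsb -0.06 to 0.29). Among the lower members the term was 2.11 for Lamp1 (SE 0.33), 1.49 for Scarb2 (SE 0.09), 1.40 for Galc (SE 0.14), 1.36 for Lamp2 (SE 0.09) and 1.23 for Ppt1 (SE 0.06). Their RANK-L log2 fold changes in null cultures lay between -0.11 and 0.25. The members without a call were Hexa, Ids, Manba, Arsa and Tpp1. Without null OC replicate 6, or without WT OC replicate 4, 27 members passed. After correction for transcript length and GC content the interaction was lost for Gaa (0.03), Naglu (0.11), Mcoln1 (0.19), Neu1 (0.25), Cd63 (-0.19) and Tfeb, and 23 members passed in all. The call of Tfeb (0.35, adjusted p 0.0476) did not survive 19 of the 24 possible removals of a single library, at log2 values of 0.31 to 0.36. It was kept only without null BMM replicate 2 or 4, null OC replicate 5, WT BMM replicate 2 or WT OC replicate 3.

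**Figure D3:**
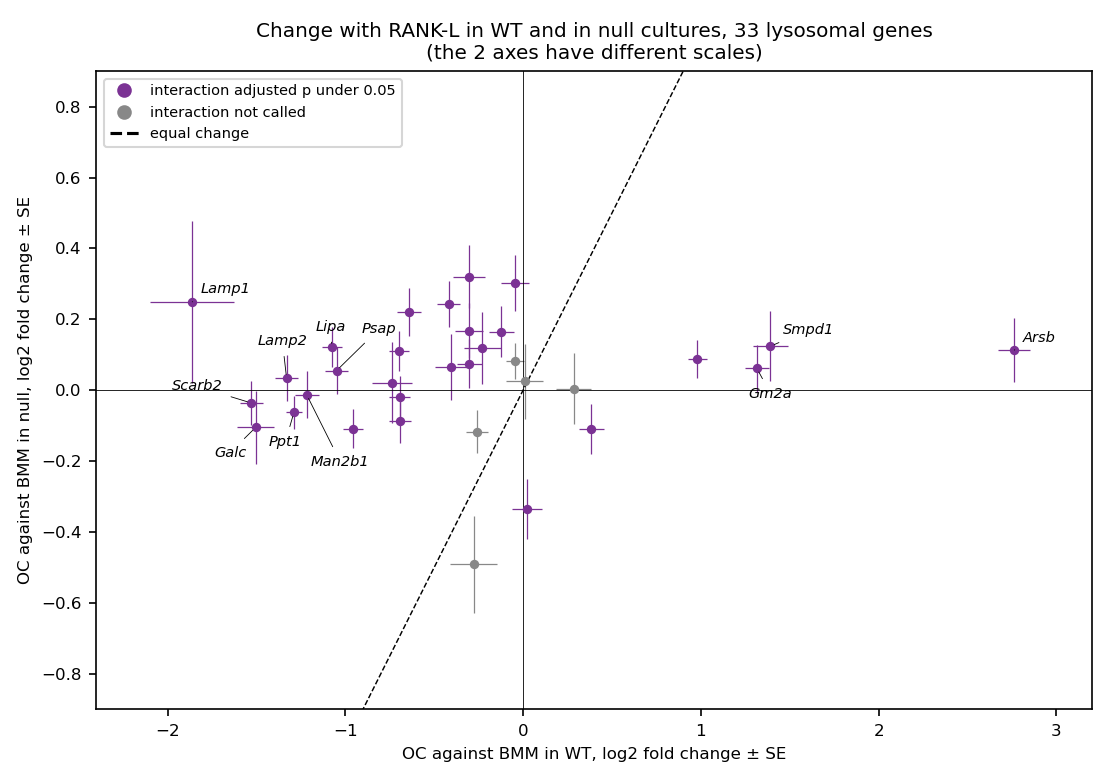
Log2 fold change from BMM to OC in WT (horizontal axis) and in null cultures (vertical axis, a narrower scale) for the 33 members, with SE bars and the line of equal change. Points spread from -1.86 to 2.76 in WT and from -0.49 to 0.32 in null; members whose interaction is 1 or more in size are named.

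Without RANK-L, most members were lower in null than in WT macrophages. In BMM 22 of 33 members passed the threshold, against 52.3% of all genes: 21 were lower in null (25.4% of all genes were) and 1, Gm2a, was higher (27.0%). The median log2 fold change was -0.31, beside 0.02 over all genes. The call of Gm2a (log2 fold change 0.20, SE 0.08, adjusted p 0.0364) was not stable. It was lost without null BMM replicate 3, 5 or 6 or WT BMM replicate 1, 2, 3 or 5 (0.13 to 0.19). The call also went with limma, without the filter on low counts and with the replicate number as a block (0.18 to 0.20).

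By role, 8 of 11 glycosidases, 3 of 5 sulfatases, 3 of 4 lipid hydrolases, 3 of 4 activator and transfer proteins, the peptidase, the thioesterase and 2 of 6 membrane proteins were lower in null BMM. Arsb had 18.4, 21.3 and 22.5 CPM in null BMM, below all WT BMM libraries (log2 fold change -1.67, SE 0.09, adjusted p 1.43e-10). This was the only member changed by more than 2-fold, at 3.19-fold. Galc had 92.1, 99.4 and 110.5 CPM in null BMM, again below all WT libraries (log2 fold change -0.95, SE 0.07). Naglu, which trims heparan sulfate, had 116, 140 and 154 CPM against 236, 258 and 274 CPM in WT BMM (-0.88, SE 0.07), without overlap. The sulfatase Sgsh, of the same heparan sulfate pathway, had a log2 fold change of -0.80 (SE 0.10), Ppt1 of -0.73 (SE 0.05) and Man2b1 of -0.68 (SE 0.07). The other lower members were Gusb, Npc1, Manba, Asah1, Hexa, Arsa, Lamp2, Smpd1, Tpp1, Idua, Psap, Npc2, Scarb2, Neu1 and Gaa, with log2 fold changes from -0.59 to -0.23. After correction for transcript length and GC content the calls of Npc2 (-0.16), Neu1 (-0.20) and Gaa (-0.16) were lost. The Gaa call was also lost without null BMM replicate 2, 3 or 4 or WT BMM replicate 1, 2 or 4 (-0.23 to -0.18) and the Neu1 call without null BMM replicate 5 (-0.17). Lipa (-0.03), Gla (0.06), Glb1 (-0.09), Lamp1 (-0.22) and Tfeb (0.01) were among the members that missed the threshold. Over the same libraries, macrophage markers summed to 10475 to 11717 TPM in WT BMM and 8857 to 9918 TPM in null BMM, and 6 of 8 of them were lower in null. Osteoblast markers summed to 5055 to 7979 TPM in WT BMM and 1727 to 2453 TPM in null BMM. Most of them did not follow this sum: 4 of 8 passed the filter on low counts, 3 called higher in null and 1 lower. Alpl and Sp7 had 0 rounded counts in every WT BMM library. The part of the macrophage or osteoblast markers in the members' changes was not tested.

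In cultures given RANK-L the members went both ways. Of 33 members 27 differed between null OC and WT OC, against 65.6% of all genes: 15 were higher in null (32.4% of all genes were) and 12 lower (33.1%). Macrophage markers were higher in null OC for 7 of 8 genes and osteoclast markers lower for 8 of 8 beside these changes. Neutrophil markers summed to 8.45 to 12.3 TPM in WT OC and 174 to 216 TPM in null OC. Only 2 of the 10 passed the filter on low counts, both called higher in null OC. Ly6g, Elane, Ngp, Ltf and Retnlg had 0 rounded counts in every null OC library. Osteoblast markers summed to 1681 to 2089 TPM in WT OC and 2161 to 3692 TPM in null OC. Of these, 4 of 8 passed the filter, and 3 were called higher in null OC. The part of these markers in the members' changes was not tested. Arsb had 17.3, 22.8 and 26.3 CPM in null OC against 422, 445 and 516 CPM in WT OC, a 20.1-fold lower level (log2 fold change -4.33, SE 0.10, adjusted p 8.59e-16). Smpd1 had 30.8, 45.3 and 54.2 CPM, below all WT OC libraries (-1.61, SE 0.11). Gm2a had 431, 499.9 and 516 CPM, also below all WT OC libraries (-1.06, SE 0.06). The other lower members were Glb1 (-0.99), Manba (-0.86), Npc2 (-0.79), Arsa (-0.52), Naglu (-0.51), Cd63 (-0.40), Hexa (-0.39), Ids (-0.34) and Tpp1 (-0.20). Without null OC replicate 3 or WT OC replicate 3 the Ids call was lost (-0.31 or -0.28). It was also lost after correction for transcript length and GC content (-0.18).

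Lamp1 was the member with the largest rise in null OC, with 361, 831 and 1195 CPM against 113, 247 and 301 CPM in WT OC (log2 fold change 1.88, SE 0.28, adjusted p 5.81e-05), a 3.69-fold difference without overlap. Scarb2 had 72.6, 74.1 and 83.8 CPM in null OC, above all WT OC libraries (1.20, SE 0.07). Lipa, which frees cholesterol and fatty acids from lipoprotein lipids, had 2181, 2356 and 2602 CPM against 988, 1074 and 1147 CPM in WT OC (1.16, SE 0.06). Gla, the α-galactosidase, rose by 0.86, Fuca1 by 0.85, Lamp2 by 0.84, Psap by 0.79, Galns by 0.68, Man2b1 by 0.51, Cln3 by 0.50, Ppt1 by 0.48, Galc by 0.44, Tfeb by 0.35, Npc1 by 0.27 and Neu1 by 0.23. After correction for transcript length, with or without GC content, Tfeb (0.06 to 0.11) missed the threshold, and after correction for length and GC content Neu1 did (0.03). Of its relatives, Tfe3 was higher in null OC by 0.62 (SE 0.07) and Mitf and Tfec were lower, by -0.68 (SE 0.11) and -0.93 (SE 0.11). Without null OC replicate 6, or without WT OC replicate 4, the counts were again 15 higher and 12 lower.

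Across BMM and OC, whose libraries are separate, 8 members were lower in null in both (Hexa, Naglu, Manba, Arsa, Arsb, Npc2, Tpp1 and Smpd1). Another 8 were lower in null BMM and higher in null OC (Neu1, Man2b1, Npc1, Psap, Lamp2, Ppt1, Scarb2 and Galc). Over all genes 25.4% were lower in null BMM, and 32.4% were higher and 33.1% lower in null OC. The share of all genes with either joint pattern was not computed. Psap shows the second pattern: it had 7168, 7938 and 8679 CPM in WT BMM, 5980, 6244 and 7076 in null BMM, 3587, 3843 and 4045 in WT OC and 5545, 6669 and 7744 in null OC. Its null libraries thus lay between those of WT BMM and WT OC, apart from an overlap of null OC with WT BMM.

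In osteoblast cultures 14 of 33 members were lower in null (32.5% of all genes were called; 16.9% were lower) and 0 were higher (15.5%). At an unadjusted p under 0.05 the counts were 16 lower and 3 higher, with DESeq2 15 lower and 0 higher, and with limma 15 lower and 1 higher. The largest change was in Gla, with 32.8, 38.3 and 41.9 CPM in WT OB and 22.3, 23.7 and 30.2 CPM in null OB, without overlap (log2 fold change -0.62, SE 0.09, adjusted p 1.12e-04). Npc2 had 1019, 1095 and 1137 CPM in WT OB and 718, 736 and 929.6 CPM in null OB (-0.48, SE 0.07). Cln3 (-0.43), Neu1 (-0.41), Hexa (-0.39), Fuca1 (-0.33), Lipa (-0.30), Ppt1 (-0.28), Asah1 (-0.27), Cd63 (-0.26), Mcoln1 (-0.25), Man2b1 (-0.20), Gusb (-0.19) and Npc1 (-0.17) were the other lower members. Hexa, the α subunit of hexosaminidase A, and Npc2 were lower in null in all 3 cultures, a pattern whose share over all genes was not computed. The calls of Gusb, Npc1 and Man2b1 had adjusted p of 0.0389, 0.0321 and 0.0251. Gusb lost its call without null OB replicate 2, 4 or 5 or WT OB replicate 1, 3, 5 or 6 (-0.20 to -0.16), Npc1 without null OB replicate 1, 2, 4 or 6 or WT OB replicate 1, 2, 3 or 5 (-0.17 to -0.14), and Man2b1 without null OB replicate 2 or 4 or WT OB replicate 1, 3 or 5 (-0.19 to -0.15). After correction for transcript length and GC content, Cd63 was 0.01 and no longer called, and Cln3 (-0.21) and Mcoln1 (-0.11) lost their calls too. Lamp1 (-0.47, SE 0.32, adjusted p 0.3) and Arsb (0.20, SE 0.09, adjusted p 0.114) missed the threshold. Over these libraries 6 of 8 macrophage markers were lower in null OB, and 4 of 8 osteoblast and 3 of 8 osteoclast markers were higher. The osteoblast markers summed to 28587 to 38618 TPM in WT OB and 43297 to 58680 TPM in null OB, without overlap, and their part in the members' changes was not tested.

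The genotype effect differed between OB and OC for 25 members, against 55.2% of all genes, with a positive difference (OB minus OC) for 8 (27.8%) and a negative one for 17 (27.4%). The difference was 4.55 for Arsb (SE 0.13, adjusted p 7.44e-26), 1.47 for Smpd1 (SE 0.12), -2.34 for Lamp1 (SE 0.38), -1.46 for Gla (SE 0.09) and -1.44 for Lipa (SE 0.10). Arsb, far lower in null OC, had 71.1 to 97.2 CPM in null OB and 61.9 to 87.9 CPM in WT OB, ranges that overlapped.

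**Figure D4:**
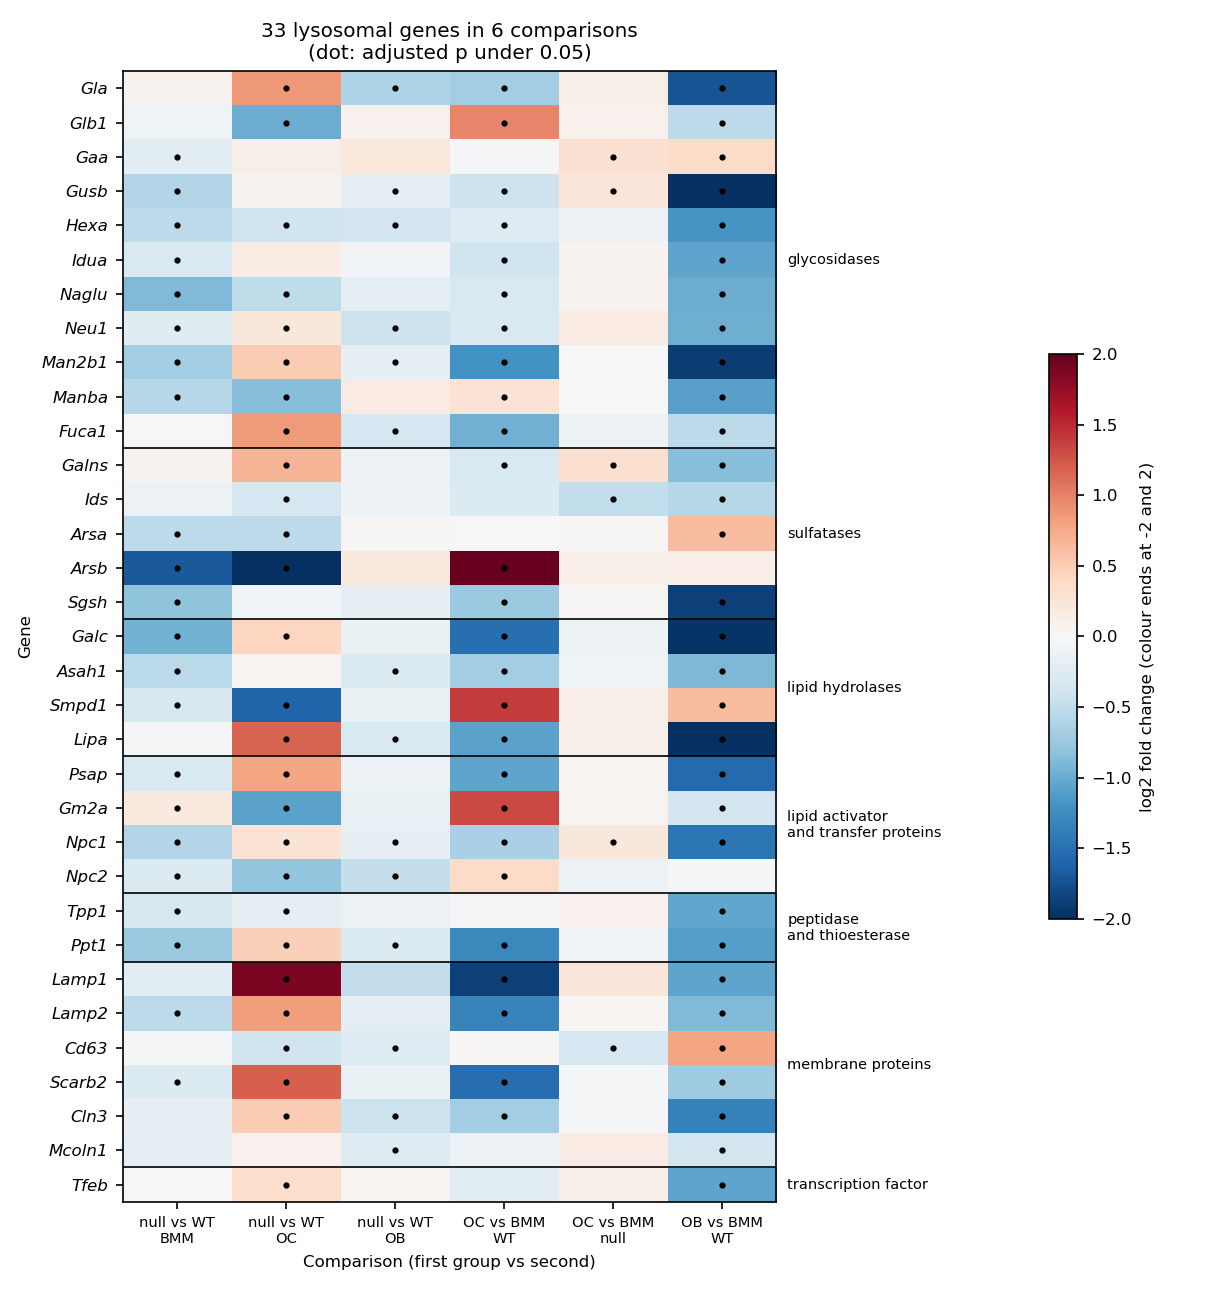
Log2 fold change of each member (rows, grouped by role) in 6 comparisons (columns), red where the first group is higher and blue where it is lower, with a dot where the adjusted p is under 0.05; colour ends at -2 and 2. The column for null against WT in BMM holds 21 lower calls, that for OC 15 higher and 12 lower, and that for RANK-L in null cultures 6 calls.

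Between WT osteoblast and WT macrophage cultures 31 members differed, against 76.8% of all genes, 4 higher (41.5% of all genes were) and 27 lower (35.3%) in OB. Lipa, at 336, 382 and 429 CPM in WT OB against 1987, 2319 and 2393 CPM in WT BMM, was 5.98-fold lower (log2 fold change -2.58, SE 0.08). Gusb (-2.16), Galc (-1.95), Man2b1 (-1.89) and Sgsh (-1.87) followed. Cd63 (0.79), Smpd1 (0.64), Arsa (0.62) and Gaa (0.38) were higher in OB. Arsb (0.14) and Npc2 were the 2 members without a call.

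Members of other lysosomal lists were counted in the same fits, 81 genes in all: 21 hydrolases and activators, 22 membrane proteins, 18 genes that sort cargo to lysosomes and 20 regulators. In WT OC against WT BMM 64 of 81 were called, against 60.5% of all genes. Of the 81, 16 were higher (30.4% of all genes were) and 48 lower (30.1%). Among the higher were Igf2r, the large mannose 6-phosphate receptor (log2 fold change 1.57, SE 0.07), and Clcn7, the chloride transporter that aids acidification (1.23, SE 0.06). Among the lower were the phospholipase Pla2g15 (-2.48, SE 0.09) and the glutamyl hydrolase Ggh (-1.50, SE 0.07). In null cultures 14 of 81 were called, against 12.9% of all genes. They were 7 in each direction (6.78% of all genes were higher and 6.07% lower). The interaction passed for 58 of 81, against 51.4% of all genes, with 43 positive (25.3%) and 15 negative (26.1%). In null BMM 49 of 81 were called, 15 higher, among them the acid phosphatase Acp2 (0.64, SE 0.05) and the glycoprotein Creg1 (0.83, SE 0.07), and 34 lower, among them Fnip2 (-1.28, SE 0.06). In null OC 35 of 81 were higher, among them Creg1 (1.98), and 30 lower, among them Clcn7 (-1.32). In null OB 6 were higher, among them Igf2r (0.77) and Ap1g1 (0.30), and 34 lower, among them Creg1 (-0.57) and Lamtor1 (-0.42). The shares called, 60.5% in BMM, 80.2% in OC and 49.4% in OB, stood beside 66.7%, 81.8% and 42.4% of the members. Over all genes they were 52.3%, 65.6% and 32.5%. Of all genes 27.0% were higher and 25.4% lower in null BMM, 32.4% and 33.1% in null OC, and 15.5% and 16.9% in null OB. Of the relatives of Tfeb, Mitf (-0.28) and Tfec (-0.35) fell in null BMM and Tfe3 was not called (-0.12). In null OB Mitf rose (0.31), Tfec fell (-0.31) and Tfe3 was not called (0.02).

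Matches to the microRNA seeds were set beside these calls. Of the 8 members with a miR-324-3p match, 0 were higher and 7 lower in null BMM, and of the 25 without it 1 was higher and 14 lower. In null OC 5 of the 8 were higher and 1 lower, against 10 higher and 11 lower of the 25. In null OB 4 of the 8 and 10 of the 25 were lower and 0 higher. Of the 4 members with a miR-324-5p match 3 were lower in null BMM, 2 were higher and 1 lower in null OC, and 0 were called in null OB. Of the 29 without it 18 were lower and 1 higher in null BMM, 13 higher and 11 lower in null OC and 14 lower in null OB. None of these splits was tested, and the shares called among all genes with a match were not computed. A match counted even where another transcript of the gene, such as Gusb-201 or Ppt1-201, held most of its TPM. Over all genes, 25.4% were lower and 27.0% higher in null BMM, and 33.1% lower and 32.4% higher in null OC. In null OB 16.9% of all genes were lower and 15.5% higher.

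The deposited tables are per transcript, so the share of a member's TPM in its leading transcript was compared between genotypes. This gave 63 shares, of 21 members in 3 cultures, and 6 of them moved by at least 10 percentage points. Of these 6, 3 passed an adjusted p of 0.05 in a two-sided exact permutation test of 6 against 6 libraries. Each had an exact permutation p of 0.00216, the smallest this design allows, which was 0.00433 adjusted over the 6 and 0.0341 adjusted over all 63 shares. Over all 63, 7 shares passed, the other 4 with smaller moves: Gusb in BMM and OB, Neu1 in BMM and Lamp2 in OB. Lamp2 encodes isoforms that differ in the tail and membrane anchor through alternative last exons. Lamp2-201, whose last exon lies at X 38405062 to 38405571, made up 59.6% ± 2.94 (SD, n = 6) of Lamp2 TPM in WT BMM and 72.3% ± 2.47 in null BMM, a difference of 12.7 points. In OC the share was 48.6% ± 1.63 in WT and 70.2% ± 2.50 in null, a difference of 21.6 points, with no overlap of libraries in either culture. In OB it went the other way, from 53.1% ± 2.09 in WT to 47.0% ± 2.56 in null, a change under 10 points (exact permutation p 0.00433, 0.039 adjusted over all 63 shares). The other main transcript, Lamp2-202, has its own last exon (X 38419507 to 38421851), which holds the miR-324-3p match printed above. Lamp2-202 stood at 258 ± 11.2 TPM in WT BMM and 124 ± 22.2 TPM in null BMM, without overlap, and at 131 ± 10.2 and 140 ± 24.9 TPM in WT and null OC, with overlap. Lamp2-201 stood at 397 ± 35.1 and 338 ± 21.6 TPM in BMM, with overlap, and at 129 ± 7.09 and 341 ± 44.2 TPM in OC, without overlap. The genotypes thus stood without overlap for Lamp2-202 in BMM and for Lamp2-201 in OC. Lamp2-201 in BMM had a null mean of 0.850 of the WT mean. The levels of single transcripts were not tested. Ppt1-201 made up 77.9% ± 3.41 of Ppt1 TPM in WT BMM and 63.2% ± 4.44 in null BMM. The leading transcripts of Tfeb in OC and OB and of Sgsh in BMM moved by 10 points or more without passing the threshold.

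**Figure D5:**
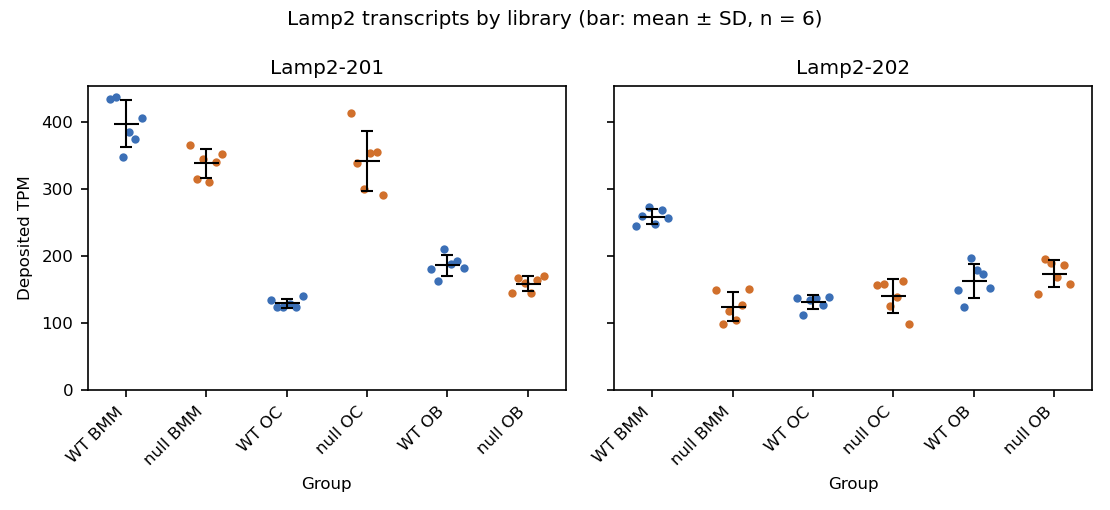
Deposited TPM of the transcripts Lamp2-201 and Lamp2-202 (vertical axis) in each library by group (horizontal axis), with mean ± SD. Lamp2-202 is lower in null BMM than in WT BMM, 124 against 258 TPM, and Lamp2-201 is higher in null OC than in WT OC, 341 against 129 TPM.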

How the data were processed

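Total RNA from 36 cultures was sequenced after a low-input library kit, per the labels. The authors deposited 1 kallisto table per library, with estimated counts and TPM per Ensembl transcript, per the file headers and the submitters' processing notes. Those notes also name DESeq2 and the human build GRCh38, although the transcript identifiers are mouse, and give no versions. Here both units were summed over each gene's transcripts with the GENCODE annotation of GRCm38, and 97.5% of 88198 transcripts matched. Estimated counts were rounded and genes with low counts removed by edgeR's filterByExpr. Libraries were scaled by TMM and tested with edgeR 4.0.16 (quasi-likelihood, robust) in R 4.3.3, with Benjamini-Hochberg adjustment over all genes tested. Genotype was tested within each culture, RANK-L and its interaction in one fit of the BMM and OC libraries, and the remaining comparisons in one fit of all 36. Fits were tested on simulated counts first. The closest libraries of a group differed by more than counting noise (chi-square per gene at least 3.46), and none was counted as a duplicate. Members, lists and named genes were chosen with earlier results of these data known. All 33 members are accounted for. From the other lists, called genes could be named by smallest p, up to 2 per direction and comparison, and Tfe3, Mitf and Tfec beside Tfeb. Some genes that this rule allows are not reported here. Alternatives covered the filter, scaling, DESeq2 1.42.0, limma 3.58.1, length and GC offsets, the replicate number as a block and each library left out. Depth was 14118972 to 26347581 estimated counts per library, and intervals cover fitted error only.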

Additional observations from a re-analysis of the deposited data

Results flagged for a closer look

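In 8 of 198 sets of 6 libraries (33 members in 6 groups) the highest or lowest library lay further from its nearest neighbour than Dixon's critical value allows. Chance alone flags about 1 in 20 such groups. WT OC replicate 4 accounted for 3 of the 8, with the highest Arsb (516 CPM, next 451 CPM), Glb1 (483 CPM, next 422 CPM) and Tpp1 (685 CPM, next 621 CPM). The highest Gla of null OB was 30.2 CPM in replicate 5 (next 24.9 CPM), the highest Hexa of WT OB 839.987 CPM in replicate 2 (next 782 CPM) and the highest Galc of null OB 59.4 CPM in replicate 3 (next 44.9 CPM). The lowest Neu1 of null OC was 109 CPM in replicate 5 (next 141 CPM), and the lowest Manba of null BMM was 50.3 CPM in replicate 1 (next 59.8 CPM).

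The change with RANK-L differed between genotypes, by the interaction term of edgeR's quasi-likelihood test, for 28 members. The log2 difference (null minus WT) was at least 1 in size for Arsb (-2.65), Smpd1 (-1.27), Gm2a (-1.25), Psap (1.10), Lipa (1.20), Man2b1 (1.20), Ppt1 (1.23), Lamp2 (1.36), Galc (1.40), Scarb2 (1.49) and Lamp1 (2.11). The effect of genotype differed between OB and OC for 25 members. That difference (OB minus OC) was at least 1 in size for Lamp1 (-2.34), Gla (-1.46), Lipa (-1.44), Scarb2 (-1.32), Fuca1 (-1.16), Lamp2 (-1.01), Manba (1.03), Glb1 (1.09), Smpd1 (1.47) and Arsb (4.55).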

How the results depend on the processing

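Of 179 member results past the threshold, 151 kept their direction and call under all 9 alternatives and in all fits without 1 library. The offset for transcript length and GC content lost 20 calls that kept their sign, and also the call of Cd63 in OB, which changed sign. The offset for average transcript length lost 9 calls, no filter 5, limma 4 and another scaling (RLE) 1. One fit of all libraries lost 2, and DESeq2 and a stricter filter 0. With 1 library left out, members called ranged from 20 to 22 in BMM, 26 to 27 in OC, 11 to 16 in OB, 26 to 27 for RANK-L in WT, 4 to 7 in null, 27 to 28 for the interaction, 31 to 31 for OB against BMM and 24 to 25 for OB minus OC. The ratios of summed TPM ranged from 0.720 to 0.772 in BMM, 0.995 to 1.03 in OC and 0.936 to 0.966 in OB, and the transcript shares past the threshold from 3 to 4. With summed CPM these ratios were 0.803, 1.19 and 0.857. The stricter motif TCACGTGA was in the promoters of 10% of the members with an entry and 1.13% of all genes.

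Some values changed sign, and the cause was not tested. They were near 0 apart from Cd63 in OB, a called result that ranged from -0.277 to -0.232 with 1 library left out. With the length and GC offset Lipa in BMM was 0.0416, Tfeb in BMM -0.11, Cd63 in OB 0.0137 and Psap with RANK-L in null -0.0424. Tfeb in BMM was -0.044 with the average length offset and -0.0016 with no filter. With 1 library left out it ranged from -0.0707 (without WT BMM replicate 2) to 0.0426, and it was also negative without null BMM replicate 2 or 4 or WT BMM replicate 6. Tfeb in OB ranged from -0.0034 (without null OB replicate 6) to 0.133, and Lamp2 with RANK-L in null from -0.0196 (without null OC replicate 1) to 0.0826.

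With the replicate number as a block, 20 members were called in BMM, 27 in OC and 13 in OB, and 4 calls were lost over all comparisons. In the pairs of groups examined, the deviations of same-numbered libraries had correlations from -0.131 to 0.103. Of the 6 WT BMM libraries 3 matched their own number best in WT OC, against 0 to 2 in the other pairs. Such weak correlations cannot decide whether same-numbered libraries had a common source. When all 63 transcript shares were tested and adjusted together, a choice made after seeing the data, 7 passed, among them the 3 of the 6 that had moved by at least 10 points. The estimated counts limit the weakly expressed members, Ids and Tfeb, more than the others.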
